A study of Drosophila melanogaster with 12 samples.

Results

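The retrotransposons gypsy, ZAM, Tirant, 297 and 17.6 of Drosophila melanogaster were followed at the level of their piRNAs and of their transcripts in testes with and without the kinesin Klp10A. They were chosen by name, not by a rule on their values, but with earlier results of these data known. They make up 5 of the 123 transposable element (TE) rows of the piRNA tables and 5 of the 127 TE rows that the mRNA table lists beside 15240 genes. Their identifiers in the tables are FBgn0001167_gypsy, FBgn0023131_ZAM, FBgn0004082_Tirant, FBgn0000005_297 and FBgn0000004_17, the last of which is 17.6 with its name cut at the point. The mRNA table carries the class LTR on every TE row, also on elements without long terminal repeats, so that column does not test the label. Each row sums all copies of an element over the genome, so no single locus and no exon or intron can be given for a value.

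Errantiviruses are long terminal repeat retrotransposons of the gypsy group that resemble retroviruses, and many of them carry an env gene for an envelope protein besides gag and pol. In the Drosophila ovary, gypsy and ZAM are known as elements of the somatic follicle cells, where Piwi loaded with antisense piRNAs from the flamenco cluster on the X chromosome silences them in the nucleus. Germ cells add the ping-pong cycle, in which Aubergine and AGO3 cut transcripts and cluster RNAs in turn and so make sense as well as antisense piRNAs. An antisense piRNA can pair with the element's transcript, whereas a sense piRNA has the sequence of that transcript.

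Both genotypes came from testes of flies aged 0 to 2 days, in pools of 300 pairs of testes, with 3 wild type and 3 klp10ARNAi libraries for small RNA and as many for mRNA, made from total RNA after removal of ribosomal RNA. In klp10ARNAi, the driver nos-gal4 expressed the short hairpin TRiP.HMS00920 against klp10A, a microtubule-depolymerizing kinesin of the kinesin-13 family, in germ cells, so the somatic cells of the testis were not targeted. The labels give no strain and no driver for wild type. The question was how piRNAs and TE transcripts differ once germ cells are depleted of this motor. Whole testes were sampled, so fewer cells of a type and less RNA per cell cannot be told apart.

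The mRNA libraries held 18634687 to 25536724 counts, of which 8.48% to 13.1% fell on TEs. Klp10A itself stood at 57.0 to 76.7 CPM, counts scaled to library size with TMM factors, in wild type and at 13.1 to 14.4 CPM in klp10ARNAi. Meiotic and later germ cell markers summed to 1392 to 2024 CPM in wild type and 1895 to 2287 CPM in klp10ARNAi, and none of the 7 was at 0. The piRNA values had been scaled to miRNA hairpin reads. From the steps between low values, 1 read was estimated to be worth 33.0 to 44.7 units, and 327103 to 774930 antisense reads on all TEs per library. These step estimates are rough, since 50.0% to 73.3% of the low values lay within 1 unit of a multiple.

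Antisense piRNAs of 4 of the 5 elements rose in klp10ARNAi, those of 297, gypsy, ZAM and 17.6, by 1.55-fold to 1.92-fold. Calls needed a Benjamini-Hochberg adjusted p under 0.1 over all TEs and a change over 1.5-fold. Of all 123 TEs, 62.6% passed in the same direction, and the median antisense log2 fold change was 0.76 for the 5 elements against 0.79 for all TEs. With 5 elements, 4 of 5 is near the background of the table. All 3 klp10ARNAi libraries lay above all 3 wild type libraries for each of the 5 elements, and for 81.3% of all TEs. Scaled instead to the total over all TEs, none of the 5 passed by limma (1 at an unadjusted p under 0.05), and ZAM, Tirant and 17.6 turned below 0. Under that scaling only 5 of the 123 TEs passed as higher, and 12 as lower.

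Gypsy, the element that gave the group its name and that can form infectious particles, had antisense piRNA values of 38820, 48301 and 41400 in the wild type libraries and of 79451, 78490 and 79595 in the klp10ARNAi libraries. All 3 klp10ARNAi values lay well above the highest wild type value, and they varied less. The mean went from 42840 ± 4902 to 79179 ± 601 (SD, n = 3 each), a log2 fold change of 0.89 ± 0.10 (SE, limma adjusted p = 0.000506).

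ZAM, an env-carrying element, had antisense values of 12772, 13354 and 10884 in wild type and of 20245, 21022 and 21198 in klp10ARNAi. The genotypes did not overlap, and the log2 fold change was 0.76 ± 0.098 (SE, limma adjusted p = 0.000828). Tirant, which also carries env, had antisense values of 22859, 19274 and 19992 against 23637, 24979 and 27392. Here the highest wild type and the lowest klp10ARNAi library lay close together. The log2 fold change of Tirant antisense piRNA was 0.29 ± 0.10 (SE, limma adjusted p = 0.0380), which passed the limit on p but not that on fold.

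297 and 17.6 are close relatives of each other, so reads can be shared between their rows. The antisense values of 297 were 95827, 89884 and 83715 in wild type and 167909, 176640 and 171580 in klp10ARNAi, a log2 fold change of 0.94 ± 0.079 (SE, limma adjusted p = 0.000245). Its libraries separated by genotype with a gap several times the spread within each. For 17.6 the antisense values were 94719, 69475 and 71741 against 115301, 128077 and 118558. Wild type replicate 1 was the high one among its group, yet below every klp10ARNAi library. The log2 fold change of 17.6 was 0.63 ± 0.14 (SE, limma adjusted p = 0.00673), and without wild type replicate 2 or 3 it was 0.55 or 0.57, under the fold limit.

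**Figure D1:**
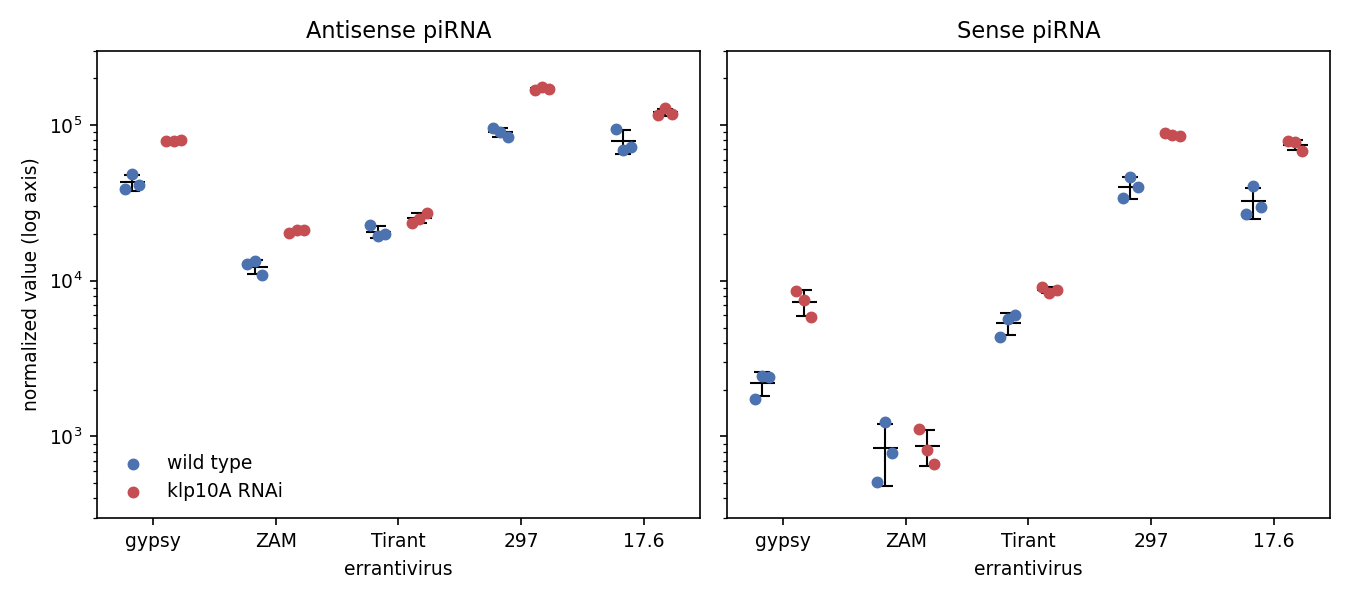
Normalized piRNA values of the 5 elements on a log axis, antisense on the left and sense on the right, with a point per library, a dash at the mean and bars of 1 SD (n = 3 per genotype). The klp10ARNAi libraries lie above all wild type libraries for every element in antisense piRNAs, and for 4 of 5 in sense piRNAs, where those of ZAM overlap at 511 to 1230.

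Sense piRNAs rose for gypsy, Tirant, 297 and 17.6 and did not pass for ZAM, with 75.6% of all TEs passing in that direction. The same 4 were those whose genotypes did not overlap, as in 78.9% of all TEs. The median sense log2 fold change was 1.13 over the 5 elements and 0.85 over all TEs. Scaled to the total over TEs, gypsy alone of the 5 still passed by limma (3 at an unadjusted p under 0.05), while ZAM and Tirant turned below 0. Of all 123 TEs, 8 then passed as higher and 8 as lower.

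Gypsy sense piRNAs had values of 1746, 2439 and 2418 in wild type and of 8592, 7564 and 5857 in klp10ARNAi. The lowest klp10ARNAi library lay far above the highest wild type library, on an estimated 44 to 260 sense reads per library. The change was 3.33-fold, a log2 fold change of 1.74 ± 0.20 (SE, limma adjusted p = 0.000957), and it ranked 4 among the 123 TEs from the highest.

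ZAM gave sense values of 511, 1230 and 780 in wild type and of 1122, 822 and 670 in klp10ARNAi. The genotypes overlapped over most of their range, and each value stood for an estimated 13 to 34 reads. Its log2 fold change was 0.11 ± 0.35 (SE, limma adjusted p = 0.789), with a 95% interval from -0.75 to 0.97, and it turned to -0.20 without wild type replicate 1 and to -0.09 without klp10ARNAi replicate 1. This interval holds both 0 and the 0.76 of its antisense piRNAs.

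For Tirant the sense values were 4344, 5716 and 6001 in wild type and 9077, 8292 and 8695 in klp10ARNAi. They separated by genotype, as its antisense piRNAs did by a smaller step, and the log2 fold change was 0.71 ± 0.15 (SE, limma adjusted p = 0.00500). Without wild type replicate 1 it was 0.57, under the fold limit.

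Sense piRNAs of 297 were at 33823, 46709 and 39960 in wild type and at 88798, 86869 and 85653 in klp10ARNAi, a log2 fold change of 1.13 ± 0.14 (SE, limma adjusted p = 0.00102). Those of 17.6 were at 26847, 40627 and 29647 against 78472, 77577 and 68381, a log2 fold change of 1.23 ± 0.18 (SE, limma adjusted p = 0.00138). In both elements wild type replicate 2 was the highest of its group and still lay far below the klp10ARNAi libraries.

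Summed over both strands, 297, gypsy, 17.6 and ZAM rose, where 71.5% of all TEs did. The total piRNA log2 fold changes were 0.997, 0.95, 0.82 and 0.73, with limma adjusted p-values from 7.18e-05 to 0.000383. Tirant had a total log2 fold change of 0.38 ± 0.080 (SE, limma adjusted p = 0.00299), under the fold limit.

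The share of piRNAs in sense orientation separated gypsy and ZAM from the other members. In wild type the sense share was 4.30%, 4.81% and 5.52% for gypsy and 3.85%, 8.43% and 6.69% for ZAM. It lay at 16.0% to 23.1% for Tirant, 26.1% to 34.2% for 297 and 22.1% to 36.9% for 17.6. Among the 123 TEs, whose median share was 33.2%, gypsy ranked 3 and ZAM ranked 8 from the lowest, so the piRNAs of both were nearly all antisense in these testes. Low wild type shares were also found in other errantiviruses, springer (6.41% to 7.91%) and gtwin (8.25% to 11.2%). Quasimodo, opus, Idefix and rover lay at 12.8% to 28.5%. This is a description of shares within each element and does not compare levels between elements.

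In klp10ARNAi the sense share of gypsy was 9.76%, 8.79% and 6.85%, above every wild type library (so in 24.4% of all TEs), and its rank from the lowest went from 3 to 16. Gypsy was the 1 member whose sense to antisense ratio passed, where 6.50% of all TEs passed in that direction. The log2 ratio changed by 0.84 ± 0.19 (SE, limma adjusted p = 0.0607). This call rests on single libraries: leaving out wild type replicate 1 or 3, or klp10ARNAi replicate 1 or 2, gave limma adjusted p-values of 0.122, 0.121, 0.215 and 0.189, with a log2 change of 0.72 to 1.0 over all 6 omissions.

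ZAM had sense shares of 5.25%, 3.76% and 3.06% in klp10ARNAi, within and below its wild type values, and the rank from the lowest went from 8 to 2. Its log2 ratio differed by -0.65 ± 0.37 (SE, limma adjusted p = 0.280). Tirant stood at 24.1% to 27.7%, 297 at 33.0% to 34.6% and 17.6 at 36.6% to 40.5%. Of these, Tirant lay just above its wild type range, and 297 and 17.6 overlapped theirs. Their log2 ratios differed by 0.42 ± 0.21, 0.19 ± 0.17 and 0.60 ± 0.28 (SE), and none of the 3 passed.

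**Figure D2:**
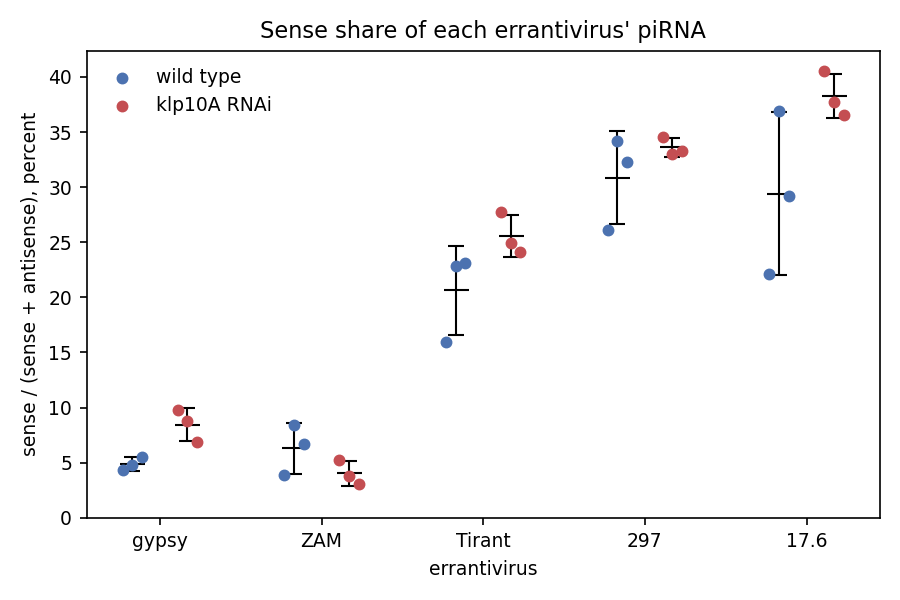
Share of piRNAs in sense orientation per library, in percent of sense plus antisense values, for the 5 elements by genotype (points are libraries, dashes are means, bars are 1 SD, n = 3). Gypsy lies at 4.30% to 5.52% in wild type and at 6.85% to 9.76% in klp10ARNAi, ZAM at 3.06% to 8.43% in both, and the other 3 elements at 16.0% to 40.5%.

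Whether the response differed in size between the 5 elements was tested on pairs. For each of the 10 pairs of elements the log2 ratio within a library was compared between genotypes by a two-sided exact permutation test, which with 3 against 3 libraries cannot give less than p = 0.1. Antisense ratios of 6 pairs did not overlap between genotypes (exact permutation p = 0.1 each, 0.167 adjusted over the 10 pairs), and sense ratios of 8 pairs did not (adjusted p = 0.125, exact permutation). Over all pairs of TEs the share without overlap was 48.5% for antisense and 42.7% for sense ratios, so pairs without overlap were common in the tables. The test cannot pass a limit of 0.05 here, and a difference in size was not shown by it.

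Tirant had the smallest antisense change of the 5, and all 4 pairs that hold Tirant were among the 6. The antisense log2 ratio of Tirant to 297 went from -2.12 ± 0.089 to -2.77 ± 0.10 (SD, n = 3), a difference of -0.65. For the close relatives 297 and 17.6 the antisense log2 ratio differed between genotypes by 0.31 without overlap, and their sense log2 ratio overlapped at a difference of -0.10. In sense piRNAs the widest gap was between gypsy and ZAM, whose log2 ratio went from 1.46 ± 0.42 to 3.09 ± 0.14 (SD, n = 3), a difference of 1.62.

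After TMM scaling, transcripts of ZAM and Tirant fell in klp10ARNAi, and those of gypsy, 297 and 17.6 did not pass in either direction. The same limits were used, with edgeR's quasi-likelihood test and adjustment over all genes and TEs tested, and 7.94% of the 126 tested TEs passed as lower. The median transcript log2 fold change was -0.59 over the 5 elements, -0.14 over all TEs and 0.01 over genes. Without TMM scaling, on total counts, the gene median moved to 0.50, none of the 5 passed in edgeR, also not at an unadjusted p under 0.05, and gypsy and 17.6 turned to 0.41 and 0.15. ZAM and Tirant then stood at -0.14 and -0.16, and of the 126 TEs 19 passed as higher and 5 as lower. The TMM factors were 0.702 to 1.04 in wild type and 0.988 to 1.33 in klp10ARNAi, so the 2 calls depended on this scaling.

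ZAM had 733, 443 and 608 counts in wild type and 525, 618 and 455 in klp10ARNAi, which after scaling were 38.6, 31.5 and 29.3 CPM against 21.2, 24.5 and 19.0 CPM. Raw counts overlapped between genotypes and the CPM values did not. The transcript log2 fold change of ZAM was -0.62 ± 0.16 (SE, edgeR adjusted p = 0.0551), a level 1.54-fold lower.

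Tirant had 1665, 1194 and 1781 counts against 1555, 1491 and 1043, or 87.6, 84.9 and 85.8 CPM against 62.7, 59.1 and 43.5 CPM. The wild type libraries were close to each other and all klp10ARNAi libraries lay below them. Its transcript log2 fold change was -0.64 ± 0.17 (SE, edgeR adjusted p = 0.0568), or 1.56-fold lower. Among all TEs, 20.6% had every klp10ARNAi library below every wild type library.

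Both transcript calls were lost on leaving out wild type replicate 1, klp10ARNAi replicate 1 or klp10ARNAi replicate 3, and that of Tirant also without wild type replicate 3 or klp10ARNAi replicate 2. Over the 6 omissions the edgeR adjusted p ran from 0.0365 to 0.231 for ZAM and from 0.0374 to 0.229 for Tirant, and the log2 fold changes from -0.72 to -0.50 and from -0.74 to -0.49. With DESeq2 the adjusted p-values were 0.0220 and 0.0114.

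Gypsy transcripts had 2558, 3038 and 2521 counts in wild type and 3466, 3760 and 3439 in klp10ARNAi, which came to 135, 216 and 121 CPM against 140, 149 and 143 CPM. Counts were higher in every klp10ARNAi library, but the scaled values overlapped, with wild type replicate 2 the highest of all 6. The log2 fold change was -0.13 ± 0.23 (SE, edgeR adjusted p = 0.739), with a 95% interval from -0.65 to 0.39, and without wild type replicate 2 it was 0.17. The TMM factor of that library was 0.702, the lowest of a range that reached 1.33.

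As a share of all TE counts, gypsy stood at 0.0967% to 0.117% in wild type and at 0.174% to 0.189% in klp10ARNAi. The TE copia made up 53.9% to 55.2% of TE counts in wild type and 27.7% to 30.9% in klp10ARNAi. Without copia in the denominator, a choice made after seeing the data, the gypsy shares were 0.216% to 0.257% against 0.241% to 0.261% and overlapped.

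Transcripts of 297, the most variable of the 5, stood at 6594, 9254 and 4693 CPM in wild type and 3015, 6353 and 4248 CPM in klp10ARNAi. The libraries overlapped, and the log2 fold change was -0.59 ± 0.36 (SE, edgeR adjusted p = 0.340). For 17.6 the levels were 1717, 2036 and 1384 CPM against 1010, 1615 and 1419 CPM, a log2 fold change of -0.35 ± 0.25 (SE, edgeR adjusted p = 0.417). In both elements wild type replicate 2 was the highest and klp10ARNAi replicate 1 the lowest library.

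**Figure D3:**
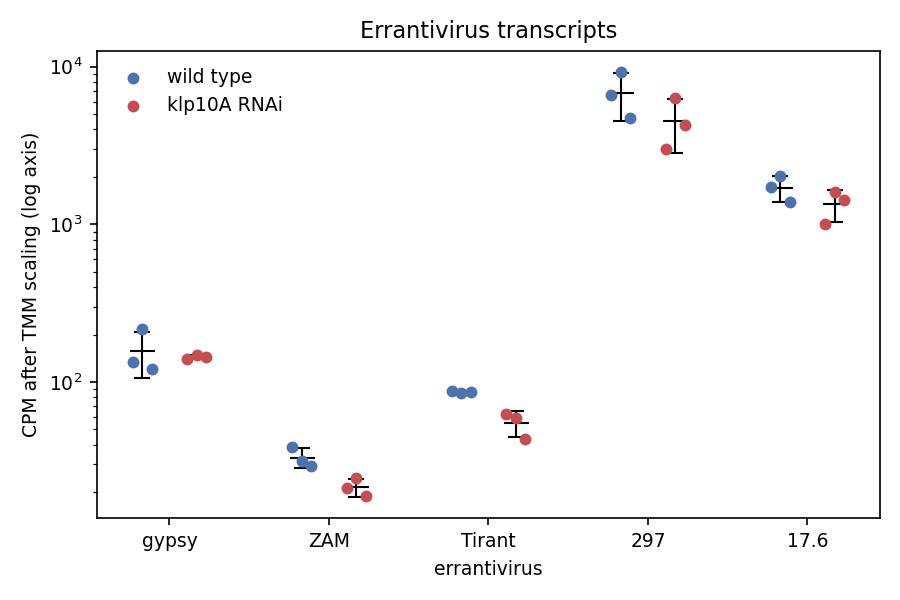
Transcript level of the 5 elements per mRNA library in CPM after TMM scaling, on a log axis, by genotype (points are libraries, dashes are means, bars are 1 SD, n = 3). ZAM (29.3 to 38.6 against 19.0 to 24.5 CPM) and Tirant (84.9 to 87.6 against 43.5 to 62.7 CPM) separate by genotype, while gypsy, 297 and 17.6 overlap.

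None of the 10 pairs of elements separated by genotype in their transcript log2 ratios, at adjusted p-values of 0.5 or more (exact permutation), where 35.4% of all pairs of tested TEs did. A difference between the transcript responses of these elements was thus not shown, also not between ZAM or Tirant, which passed, and gypsy, which did not.

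With piRNA scaled to miRNA hairpin reads, ZAM and Tirant had more piRNA of at least 1 strand and, after TMM scaling, less transcript in klp10ARNAi. Gypsy, 297 and 17.6 then had more piRNA of both strands, at scaled transcript levels that overlapped. Scaled instead to the total over TEs, piRNA log2 fold changes of ZAM and Tirant were below 0 on both strands, and that of 17.6 in antisense. The small RNA and mRNA libraries are separate samples in the labels, so the readouts were not paired and the difference between them was not tested.

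**Figure D4:**
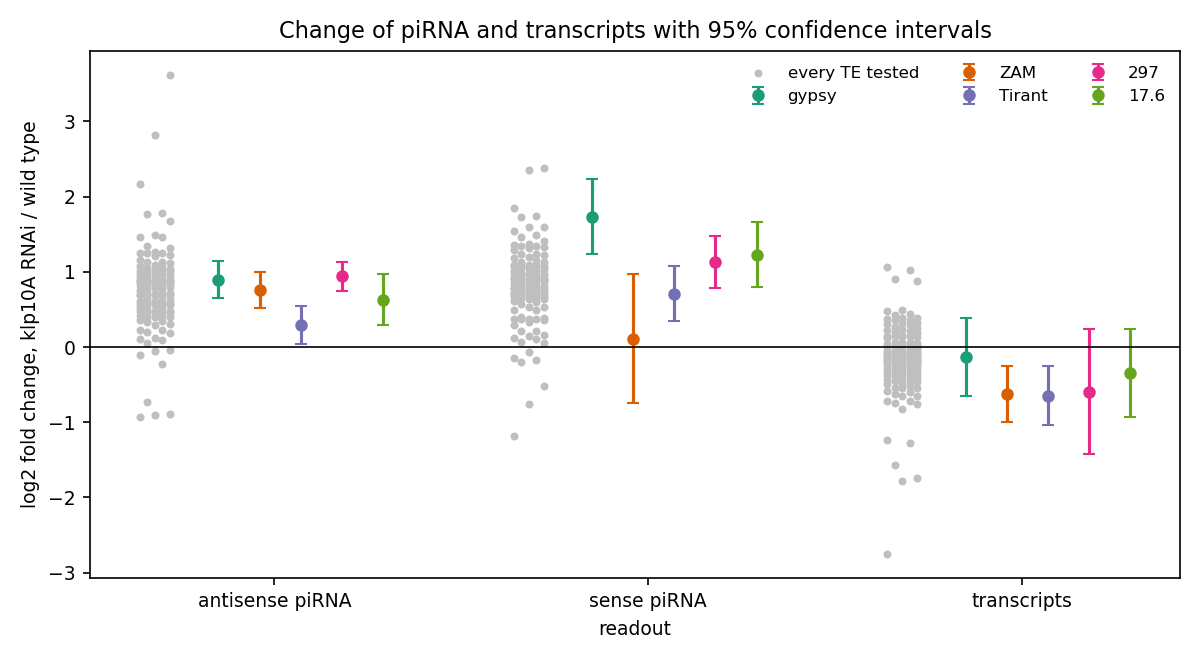
Log2 fold changes, klp10ARNAi over wild type, with 95% intervals for the 5 elements in antisense piRNA, sense piRNA and transcripts, beside grey points for every TE tested, whose medians are 0.79, 0.85 and -0.14. All 5 piRNA estimates are above 0 on both strands and all 5 transcript estimates are below 0, but antisense piRNA of ZAM, Tirant and 17.6 and sense piRNA of ZAM and Tirant fall below 0 when scaled to the total over TEs, and transcripts of gypsy and 17.6 rise above 0 without TMM scaling.

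Another 6 errantiviruses, Idefix, gtwin, opus, Quasimodo, rover and springer, were set beside the 5. Antisense piRNAs rose for 4 of the 6, with log2 fold changes of 1.14 for opus, 1.08 for gtwin, 0.84 for springer and 0.60 for Quasimodo, while Idefix was at 0.58, just under the fold limit, and rover at -0.04. Sense piRNAs rose for 5 of the 6, from 0.77 for Idefix to 1.36 for gtwin, and rover was at 0.33. For their sense to antisense ratio 0 of the 6 passed by limma (1 at an unadjusted p under 0.05).

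Transcripts of the other 6 errantiviruses gave 0 calls in edgeR and 1 at an unadjusted p under 0.05, springer, with a log2 fold change of -0.46 ± 0.14 (SE, edgeR adjusted p = 0.0953). Springer passed the limit on p but not that on fold. All its klp10ARNAi libraries (56.5 to 65.6 CPM) lay below all wild type libraries (77.7 to 90.6 CPM), as in 20.6% of all TEs. The median transcript log2 fold change of the 6 was -0.08, against -0.59 for gypsy, ZAM, Tirant, 297 and 17.6. This difference between the groups was not tested.

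Genes for Piwi, for primary piRNA biogenesis and for nuclear silencing by Piwi gave 0 of 19 calls in edgeR at an adjusted p under 0.01. Of these, 5 were at an unadjusted p under 0.05 in edgeR and 1 was called in DESeq2. Among all 11974 genes 0.200% passed as higher and 1.85% as lower, and 3018 had an unadjusted p under 0.05 in edgeR. The median log2 fold change of the 19 was 0.28 against 0.01 for all genes, and 18 were above 0. The most abundant were mino, papi, the gene of the heterochromatin protein HP1a and armi (a helicase of piRNA biogenesis), at 0.10, 0.05, 0.45 and 0.15. The widest estimate, picked after its values were seen, was that of arx, a Piwi partner in nuclear silencing, at 1.15 ± 0.21 (SE, edgeR adjusted p = 0.0181) from 13 to 70 counts per library. Transcripts of piwi, also named outside the rule for the list, were at 0.21 ± 0.17 (SE, edgeR adjusted p = 0.471).

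Ping-pong factors gave 0 of 9 calls in edgeR and in DESeq2, with 1 at an unadjusted p under 0.05 in edgeR, and a median log2 fold change of 0.12. Tud and tapas, Tudor-domain proteins and the most abundant of the list beside AGO3 and spn-E, were at -0.33 and -0.29. AGO3, the partner that carries mostly sense piRNAs in the ovary, was at -0.09, and spn-E, a helicase of the nuage, at 0.28.

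Markers of hub and cyst cells, the somatic cells of the testis, summed to 116 to 130 CPM in wild type and to 97.3 to 105 CPM in klp10ARNAi, with a median log2 fold change of -0.27 over 9 genes, none of them at 0. Fas3 and CadN, the most abundant, went from means of 41.0 and 30.7 to 31.2 and 20.8 CPM. Of the 9 genes, 2 had a log2 fold change above 0, eya at 0.45 and zfh1 (named outside the rule for the list) at 0.09. Markers of stem cells and spermatogonia summed to 44.1 to 45.4 CPM against 56.4 to 60.5 CPM over 5 genes. The largest part of that sum was bgcn, at a mean of 32.7 CPM in wild type and 42.8 CPM in klp10ARNAi. The median log2 fold change of these 5 genes was 0.50, against 0.01 for all genes, and all 5 were above 0. Accessory gland markers, from a neighbouring organ, summed to 1624 to 3119 CPM against 1411 to 1809 CPM over 6 genes. Their median log2 fold change was -0.58, with 0 of the 6 above 0. No gene of these 3 lists or of the 7 later germ cell markers passed at an adjusted p under 0.01 in edgeR or DESeq2. At an unadjusted p under 0.05 in edgeR there were 2, 2, 3 and 2, beside 3018 of all 11974 genes. The part of these marker shifts in the lower transcripts of ZAM and Tirant, or in the piRNA values, was not tested.

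The piRNA pattern most like that of each element was sought among 117 TEs over 12 values, 6 libraries on each strand. Quasimodo, Dm88 and blood came nearest to gypsy (Pearson r of 0.986, 0.980 and 0.974), and Cr1a, gtwin and the joint TART row nearest to 297 (0.996, 0.995 and 0.995, to 3 digits). F-element, jockey2 and 1360 were nearest to Tirant (0.978, 0.968 and 0.962), and F-element, gypsy5 and Fw2 to 17.6 (0.985, 0.981 and 0.979). ZAM had no such close match, with Burdock, HeT-A and G4 at 0.869, 0.776 and 0.757. All these values share libraries and the rise common to most TEs, so the coefficients only describe likeness.

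Over the 6 mRNA libraries, 297 was among the 3 features most like 17.6 and the reverse, at r = 0.981, as a description with no test. Tirant came nearest to the non-LTR element Doc (0.995) and to the genes Dcp-1 and Cka (0.990 and 0.986). ZAM was nearest to CR43241, CG8791 and CG31493 (0.997, 0.992 and 0.992), and gypsy to CG4282, Meics and CG10444 (0.987, 0.985 and 0.984). The other 2 features nearest to 297 were CG4645 and CG6574 (0.985 and 0.981), and those nearest to 17.6 were CG14072 and CG32147 (0.989 and 0.975).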

How the data were processed

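Small RNA and mRNA libraries of 3 wild type and 3 klp10ARNAi testis samples each were used, grouped by their labels. For small RNA, per the study's methods, the authors trimmed reads (Trimmomatic 0.27 in the submitters' processing notes), kept piRNA reads of 23 to 29 nt, aligned them with Bowtie2 2.2.3, assigned them to TEs by strand with eXpress and scaled to miRNA hairpin reads. The deposited piRNA values are such normalized whole numbers, treated here as a score and not as counts. The mRNA reads were aligned with STAR 2.6.0a, and the authors' deposited values are whole-number counts per gene and TE from TEtranscripts. Reads of related families are shared out by these tools, so values of related elements are uncertain. The genome build was dm3.

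piRNA values were tested in R 4.3.3 with limma 3.58.1 on log2(value + 1), without trend, over all 123 TEs, so fold changes are on that scale. With a pseudocount of 0.1 in place of 1, the log2 fold change of sense ZAM was 0.1113 against 0.1111. Counts were tested with edgeR 4.0.16 (TMM, filterByExpr, quasi-likelihood), with DESeq2 1.42.0 as an alternative. TEs were called at an adjusted p under 0.1 and over 1.5-fold, genes at an adjusted p under 0.01. Both procedures were tested on simulated data with planted changes larger than most of those called here. Recovery of smaller changes was not tested. Other pseudocounts, filters, scalings, limits, a replicate block and the omission of each library were also run. Genes named are the 5 elements, Klp10A, the 3 features most like each, listed genes past the limit or among the 4 most abundant, and other errantiviruses. No columns of the tables were left out. The members and lists were chosen with earlier results of these data known. The study calls the replicates biological triplicates. The labels do not say whether the replicate numbers pair the samples, and the main tests did not use them.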

Additional observations from a re-analysis of the deposited data

How the results depend on the processing

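Calls of the 5 elements in piRNA depended on the scaling. Scaled to the total over TEs, or centred on their median, the number called was 0 and 0 for antisense, 1 and 1 for sense (gypsy) and 0 and 0 for total piRNA. At an unadjusted p under 0.05, limma then gave 1 and 1, 3 and 3, and 1 and 3. Of all 123 TEs, 5 and 5 passed as higher for antisense, 8 and 8 for sense and 5 and 12 for total piRNA. As lower, 12 and 9, 8 and 8, and 13 and 6 TEs passed. Log2 fold changes turned below 0 when scaled to the total for antisense (ZAM -0.0934, Tirant -0.56, 17.6 -0.22), sense (ZAM -0.68, Tirant -0.0802) and total piRNA (ZAM -0.11, Tirant -0.45, 17.6 -0.0138). Centred on the median they were -0.0076, -0.48 and -0.14 for antisense ZAM, Tirant and 17.6, -0.67 and -0.0691 for sense ZAM and Tirant, and -0.25 for total Tirant. Leaving out each library in turn, sense ZAM ran from -0.20 to 0.43 and gypsy transcripts from -0.27 to 0.17. By construction, these scalings remove the rise shared by most TEs. An adjusted p under 0.01 left 0 ratio and 0 transcript calls (1 and 2 at an unadjusted p under 0.05). On total counts, edgeR called 0 transcripts (0 unadjusted), with gypsy at 0.41, 17.6 at 0.15, ZAM at -0.14 and Tirant at -0.16. Leaving out each library gave 3 to 4 antisense, 3 to 4 sense, 4 total, 0 to 2 ratio and 0 to 2 transcript calls. The labels do not say whether equal replicate numbers mark paired samples. In the check that was run, same-numbered libraries gave correlations of -0.697 to 0.244, which with 3 libraries per genotype cannot settle this. The fit with the replicate block called 0 ratios and 0 transcripts (1 and 2 at an unadjusted p under 0.05) and otherwise kept the counts. Other pseudocounts, filters, trend and tools gave counts within 1.5 times. Sense ZAM had the fewest estimated reads of the 5 elements, 13 to 34 per library, and how far depth rather than replicate spread set its error was not tested.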

Other observations

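The sense shares of the 5 elements ordered the small RNA libraries alike. Wild type replicate 1 had the lowest sense share of its group in all 5 elements, and klp10ARNAi replicate 1 the highest of its group in all 5. Among 120 TEs with values above 0 on both strands, wild type replicate 1 was the lowest in 57.5% and klp10ARNAi replicate 1 the highest in 51.7%. The elements of a library are not independent of each other, and the source of this order was not tested.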
